A study of Homo sapiens with 4 samples.

Results

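The DNA replication machinery comprised 57 genes, chosen by name for their role in copying the genome, and all 57 were found among the 55764 gene names of the deposited expression table. They were compared between TE5 cells carrying a vector for ETS1 and TE5 cells carrying the empty vector. TE5 is an established human oesophageal squamous cell carcinoma line, and ETS1 is a transcription factor of the ETS family. Bulk RNA was sequenced from 2 ETS1 libraries, labelled as ETS1 overexpression, and 2 control libraries, labelled WT and carrying the backbone alone. Per the labels, ETS1 was expressed from a CMV vector introduced with lentivirus, with selection of the infected cells. Whether each group was a pool or a single clone, and whether libraries 1 and 2 of a group came from separate cultures, is not given in the sources used here, so p-values measure the spread between these libraries only, which may be technical.

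DNA replication starts at origins, where the origin recognition complex (ORC), CDC6 and CDT1 load the ring-shaped MCM helicase onto DNA, a step called licensing that geminin (GMNN) holds in check. In S phase the DBF4-CDC7 kinase, CDC45 and the GINS complex turn the loaded rings into active helicases, and DNA polymerases then copy both strands behind them. The polymerases are held on DNA by the sliding clamp PCNA, which is put in place by replication factor C (RFC), while RPA coats the exposed single strands. Many of these genes are textbook targets of the E2F transcription factors, which drive entry into S phase.

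That background can be read in the DNA in front of the genes. RefSeq (GRCh38.p14) promoter sequence was listed for 51 of the 57 genes. The 250 bases before each start site were searched on both strands for 4 forms of the E2F motif, TTTCCCGC, TTTCGCGC, TTTGCCGC and TTTGGCGC. A match was present for 17 of the 51 genes (33.3%), against 3.40% of all 27305 genes with a listed promoter. The 4 windows below show 3 genes that were lower in the ETS1 libraries (GMNN, MCM6 and PCNA) and 1 that was higher (UHRF1), 5′ to 3′ on the strand of the gene, with each E2F match in capitals. In PCNA the match is on the opposite strand, and in MCM6 matches on both strands overlap. They lie at chr6:24775283-24775390 (plus strand) for GMNN, chr2:135876538-135876645 (minus strand) for MCM6, chr20:5126627-5126731 (minus strand) for PCNA and chr19:4909934-4910041 (plus strand) for UHRF1.
GMNN: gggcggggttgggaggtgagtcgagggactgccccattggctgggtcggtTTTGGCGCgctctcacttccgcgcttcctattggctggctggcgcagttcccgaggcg
MCM6: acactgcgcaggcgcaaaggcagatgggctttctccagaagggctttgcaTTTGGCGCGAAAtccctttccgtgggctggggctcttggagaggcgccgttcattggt
PCNA: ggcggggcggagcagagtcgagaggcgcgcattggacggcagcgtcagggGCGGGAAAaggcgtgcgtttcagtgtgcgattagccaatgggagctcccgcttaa
UHRF1: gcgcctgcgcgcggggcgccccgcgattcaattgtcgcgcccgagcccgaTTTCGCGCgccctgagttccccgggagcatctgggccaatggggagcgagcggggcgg
The match was found for 9 of the 23 genes that fell, 3 of the 13 that rose and 5 of the 15 that passed in neither direction, so genes of each kind held it. The CCAAT box (CCAAT, either strand) stood in 30 of the 51 promoters (58.8%) against 37.0% of all genes. The letters TTTGAA, the core of the CHR element of many mitotic genes, stood in 2 (POLE3 and RRM1; 3.92%) against 16.1%. The ETS motif CCGGAAGT stood in 3 (GINS3, POLA1 and RFC4; 5.88%) against 4.13%. These are matches of letters, not measured binding sites.

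Expression was measured as FPKM, fragments counted per kilobase of gene and scaled to the total of the library. That scaling does not correct for a difference between libraries in the make-up of their RNA. Several results changed with quantile normalization, as given below. The authors' values rested on 40388087 and 44157457 fragments for the controls against 57338336 and 56571618 for ETS1, as recovered from the steps in the FPKM, so the ETS1 libraries were the deeper. Changes were tested with limma on log2(FPKM + 1) in a fit over the 14306 genes whose mean FPKM was at least 1, and a gene was called at a Benjamini-Hochberg adjusted p under 0.05. ETS1 itself stood at 0.491 and 0.509 FPKM in the controls and reached 1.84 and 1.87 FPKM where it was overexpressed. Replicates of a group differed by more than the counting of reads alone. The chi-square of their recovered reads averaged 3.94 per gene in each group, where independent reads from 1 library would give about 1. Among the 57 genes the libraries of a group differed by a median of 2.35% (controls) and 1.97% (ETS1), and at most by 9.19%, for ORC4 in the controls. Of the epithelial markers 4 of 6 reached 1 FPKM in some library, with a summed level of 16.8 to 16.9 FPKM in the controls and 17.2 in both ETS1 libraries. Of the 3 epithelial markers tested KRT8 was called higher by 0.62 and KRT18 was called lower, at -0.29. Of the squamous markers only 2 of 8 reached 1 FPKM, and KRT5, KRT6A, KRT14 and TP63, which define the squamous lineage, were at 0 in both control libraries and at most 0.0165 FPKM in the ETS1 libraries. The summed squamous level was 3.17 to 3.71 FPKM in the controls and 4.80 to 4.95 FPKM in the ETS1 libraries, and SOX2, the only one tested, was called higher by 0.25. Of the fibroblast markers 1 of 6 (COL1A1) reached 1 FPKM, and of the immune and endothelial markers none of the 5 and 3 listed in the table did. The summed fibroblast level was 2.13 to 2.28 FPKM in the controls and 3.09 to 3.19 FPKM in the ETS1 libraries, with COL1A1 called higher by 0.30. The part of these markers in the results was not tested.

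The replication genes did not move as a block. All 57 passed the filter, with mean levels from 4.36 FPKM (ORC4) to 348 FPKM (PCNA). Limma called 40 of them, 25 lower and 15 higher in the ETS1 libraries, and 17 did not pass (44 had an unadjusted p under 0.05). The background was high, since 59.1% of all tested genes were called, 30.7% higher and 28.4% lower. Of the replication genes 70.2% were called, 26.3% higher and 43.9% lower. They were also better expressed, with a median control level of 28.5 FPKM against 6.13 FPKM for all tested genes. At a mean FPKM of at least 5, 5562 of 8215 genes were called, 2562 higher and 3000 lower. Of the 54 replication genes at that level 14 were called higher and 25 lower. Changes were small: the largest fall was -0.56 (POLE2) and the largest rise 0.52 (RFC3) in log2(FPKM + 1), and the median absolute change was 0.15, against 0.20 for all tested genes. The median change was -0.068, against 0.016 for all genes, but with quantile normalization, which gives the 4 libraries the same distribution of values, it was 0.027 and the calls were 22 higher and 14 lower. The groups did not overlap in 55 of the 57 genes, against 82.0% of all tested genes, and TYMS and CHAF1A were the 2 exceptions. The authors' deposited table, which calls 51.2% of its 15683 genes with an adjusted p, calls 39 of the 57, 13 higher and 26 lower. Of these, 38 were also called by limma, all 38 in the same direction. In bulk RNA, fewer cells in S phase and less RNA per cell cannot be told apart.

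**Figure D1:**
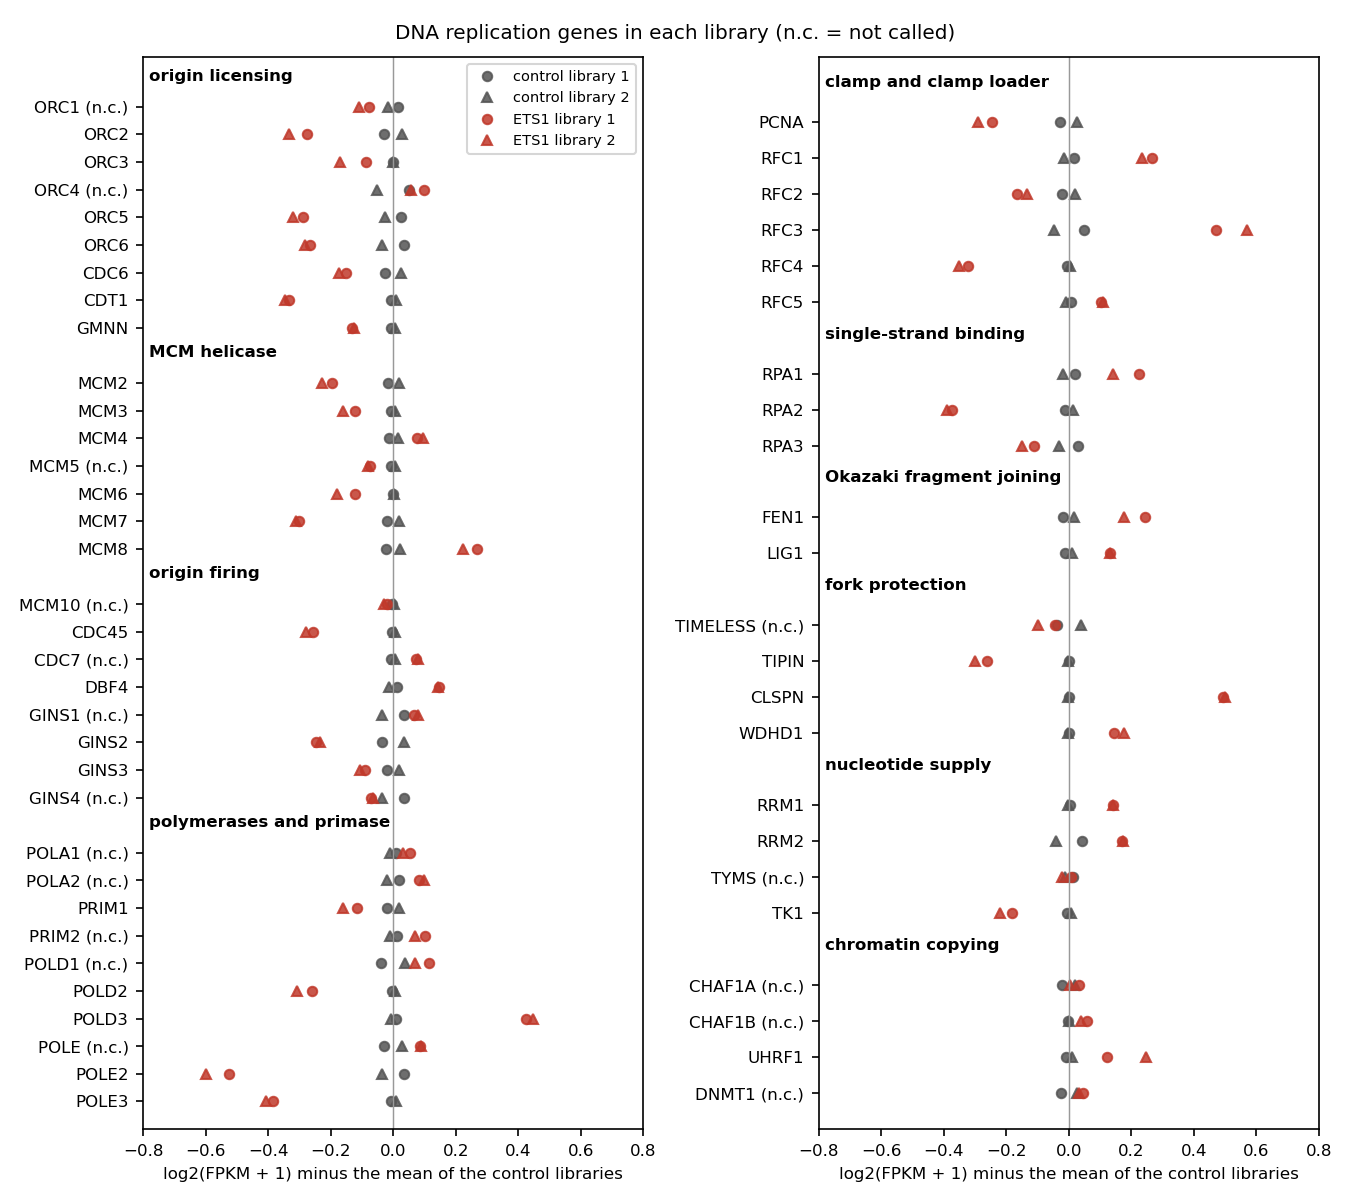
Level of each of the 57 replication genes in each library, as log2(FPKM + 1) minus the mean of the 2 control libraries, grouped by role; circles are library 1 and triangles library 2 of a group, grey is control, red is ETS1, and n.c. marks the 17 genes that limma did not call. Changes in both directions can be seen within most roles, from -0.56 for POLE2 to 0.52 for RFC3, while no gene of origin licensing was called higher.

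Origin licensing was the largest of the roles whose calls all ran 1 way. Of its 9 genes 7 fell, none rose and 2 did not pass, with a median change of -0.16. With quantile normalization 4 fell and none rose (median -0.084), and without ETS1 library 2 also 4 fell, so the direction held but the count did not. With the authors' deposited values 7 were lower, with the trend on gene length removed 6, and 8 with the median change of the chromosome, or of up to 25 protein-coding neighbours on each side (the local chromosomal median), removed.

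CDT1, the loader of the MCM rings, stood at 91.9 and 92.9 FPKM in the control libraries and 73.2 and 72.5 FPKM in the ETS1 libraries (chromosome 16, 88803213 to 88809258, plus strand, GENCODE 29 on GRCh38). Its 4 values formed 2 separate groups, and the change was -0.34 ± 0.025 (standard error, SE; limma adjusted p = 0.000841), an FPKM ratio of 0.789. GMNN, the inhibitor that binds CDT1, went from 54.6 and 55.1 FPKM to a mean of 50.1 ± 0.206 FPKM (SD, n = 2), a change of -0.13 (limma adjusted p = 0.0106), which was 0.0071 with quantile normalization. GMNN did not pass in 5 of 17 alternatives, among them without ETS1 library 1, without ETS1 library 2 and with the length trend removed (limma adjusted p = 0.0765, 0.0681 and 0.107). The FPKM ratio of GMNN to CDT1 was 0.594 and 0.593 in the controls and 0.683 and 0.693 in the ETS1 libraries. CDC6, the ATPase that joins ORC to form the loader, changed by -0.16 (limma adjusted p = 0.00947). CDC6 did not pass with quantile normalization, where it changed by -0.053, or without ETS1 library 2 (limma adjusted p = 0.189 and 0.0648).

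The 6 ORC subunits were low to moderate in level, from 4.22 FPKM (ORC4) to 22.4 FPKM (ORC6) in the control mean. ORC2 stood at 10.4 and 10.8 FPKM in the controls and 8.58 and 8.21 in the ETS1 libraries, a change of -0.30 ± 0.040 (SE; limma adjusted p = 0.00335). ORC5 went from 11.2 and 10.7 to 8.80 and 8.56 FPKM, a change of -0.30 ± 0.036 (SE; limma adjusted p = 0.00246). In each of these subunits the groups were clearly apart. ORC6 fell by 0.27 and ORC3 fell by 0.13, the latter only from 21.4 FPKM in both controls to 20.1 and 18.9. ORC3 did not pass in 8 of 17 alternatives, among them without control library 1, control library 2 or ETS1 library 2. ORC1, the subunit that cycles in level, changed by -0.093 (limma adjusted p = 0.0605) and ORC4 by 0.079 (adjusted p = 0.239), and neither passed. ORC1 was called lower with trimmed-mean scaling (-0.11) and with the chromosome median or the local chromosomal median removed (-0.15 and -0.18). The FPKM ratio of ORC4 to ORC5 went from 0.394 and 0.375 to 0.521 and 0.517.

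The MCM2 to MCM7 genes encode the 6 subunits of 1 ring, present in equal numbers in the complex. Of the 6, 4 fell, MCM4 rose and MCM5 did not pass, with a median change of -0.15. With quantile normalization 1 fell and 1 rose (median -0.020), and without ETS1 library 2 the count was 2 lower and none higher. MCM7 (chromosome 7, 100092728 to 100101940, minus strand) was the most abundant and fell most, from 126 and 129 FPKM to 103 and 103 FPKM, a change of -0.31 ± 0.027 (SE; limma adjusted p = 0.00124). MCM2 went from 49.9 and 51.2 to 44.0 and 43.1 FPKM, a change of -0.21 ± 0.029 (SE; limma adjusted p = 0.00358). MCM3 fell by 0.14 and MCM6 fell by 0.15, also with no overlap between groups. MCM2, MCM3 and MCM6 did not pass with quantile normalization, nor MCM3 and MCM6 without ETS1 library 2. These changes were much smaller than the spread in level between the subunits, which ran from 28.4 FPKM (MCM5) to 127 FPKM (MCM7) in the controls.

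MCM4 was the subunit on the other side, at 41.2 and 42.1 FPKM in the controls and 43.9 and 44.5 FPKM in the ETS1 libraries. Its change of 0.086 passed by little (limma adjusted p = 0.0457). It lost its call in 12 of 17 alternatives, and was -0.00075 with the length trend removed. MCM5 changed by -0.077 (limma adjusted p = 0.0567), and the authors' deposited table calls it lower, with a log2 fold change of -0.10 (adjusted p = 0.0284). The FPKM ratio of MCM4 to MCM7 went from 0.328 and 0.325 to 0.426 and 0.434. MCM8, a relative of these genes that is not part of the ring and acts with MCM9 in repair, rose from 15.5 and 15.9 FPKM to 19.1 and 18.5 FPKM, a change of 0.25 ± 0.034 (SE; limma adjusted p = 0.00376).

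**Figure D2:**
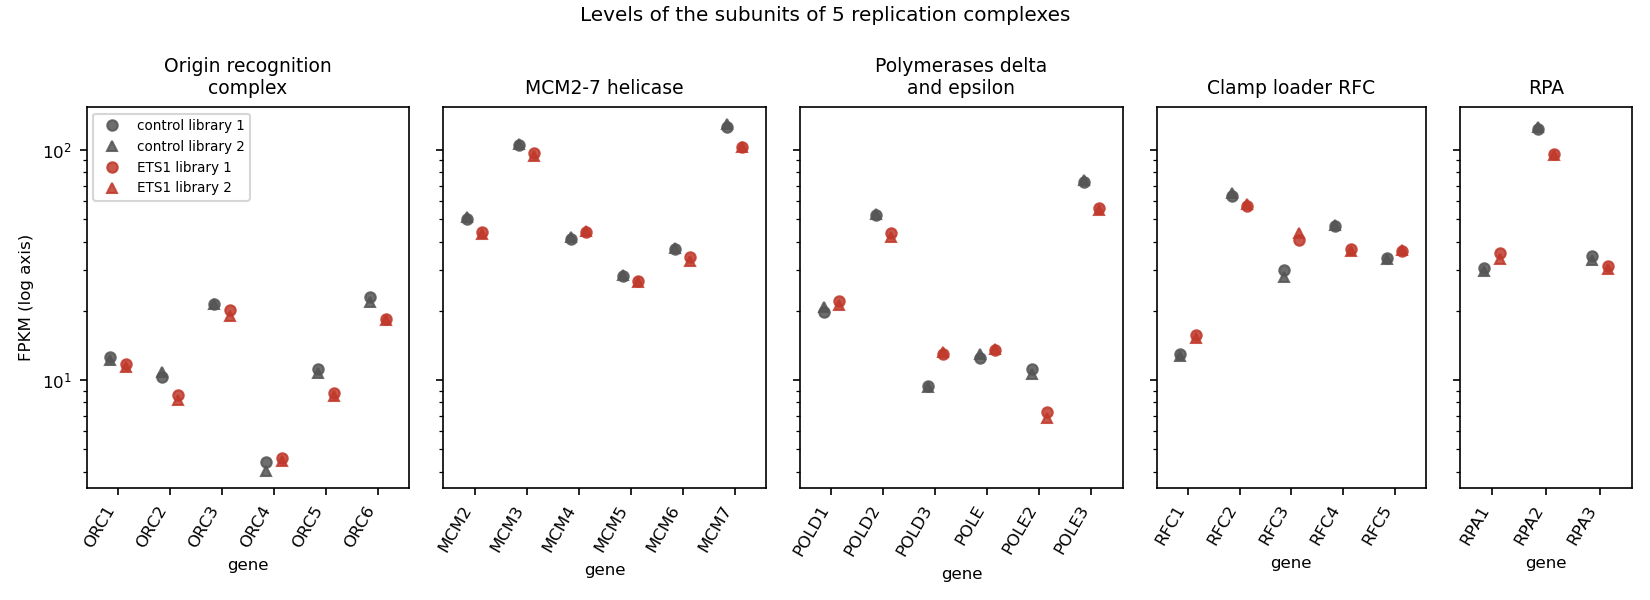
FPKM on a log axis of the subunits of ORC, the MCM2-7 helicase, DNA polymerases delta and epsilon, RFC and RPA in each library; circles are library 1 and triangles library 2, grey is control and red is ETS1. The order of the subunits changed in places; RFC3, for example, stood below RFC4 in the controls (30.0 and 28.0 against 46.7 and 47.0 FPKM) and above it in the ETS1 libraries (40.6 and 43.6 against 37.2 and 36.4 FPKM).

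In origin firing, 2 parts of the active helicase, CDC45 and GINS2, fell under every alternative. Of 8 genes 3 fell, 1 rose and 4 did not pass, with a median change of -0.047 (-0.029 with quantile normalization, 2 higher and 3 lower). CDC45, which binds MCM2-7 together with GINS, stood at 51.7 and 52.1 FPKM in the controls and 43.3 and 42.6 in the ETS1 libraries, a change of -0.27 ± 0.026 (SE; limma adjusted p = 0.00151). GINS2 went from 33.0 and 34.7 to 28.4 and 28.6 FPKM, a change of -0.24 ± 0.034 (SE; limma adjusted p = 0.00410). GINS3 fell by 0.097, and its adjusted p of 0.0472 was near the threshold. GINS1 and GINS4 changed by 0.073 and -0.068 and did not pass, so the 4 GINS subunits, which also form 1 complex, gave 2 falls and no rise. GINS3 did not pass in 11 of 17 alternatives, which left 1 fall when any library was left out, and with the local chromosomal median removed 1 fell and 1 rose. DBF4, the regulatory subunit of the CDC7 kinase, rose from 13.2 and 13.0 FPKM to 14.6 and 14.6 FPKM, a change of 0.15 ± 0.030 (SE; limma adjusted p = 0.0119). It was the only rise of the role and did not pass without ETS1 library 1 or without ETS1 library 2 (limma adjusted p = 0.0759 and 0.0750). CDC7 itself changed by 0.076 (limma adjusted p = 0.0505), and MCM10, a firing factor at the helicase, by -0.025 (adjusted p = 0.458). CDC7 was called in opposite directions by setting. It was higher with quantile normalization (0.20) and lower with the local chromosomal median removed (-0.11; limma adjusted p = 0.00322 and 0.0184).

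Among the polymerases the catalytic subunits POLA1, POLD1 and POLE did not pass in the main test, while other subunits, PRIM1 among them, moved in both directions. No test compared the catalytic subunits with the others. Of 10 genes 4 fell, 1 rose and 5 did not pass (3 lower and 3 higher with quantile normalization, 3 lower and 2 higher without control library 2). POLE2, the B subunit of polymerase epsilon, had the largest fall of the 57 genes. It stood at 11.2 and 10.6 FPKM in the controls and 7.24 and 6.84 FPKM in the ETS1 libraries (chromosome 14, 49643555 to 49688422, minus strand), a change of -0.56 ± 0.044 (SE; limma adjusted p = 0.000977) and an FPKM ratio of 0.648. POLE3, a histone-fold subunit of the same enzyme, went from 72.8 and 73.7 to 55.9 and 55.0 FPKM, a change of -0.40 ± 0.026 (SE; limma adjusted p = 0.000677). The protein-coding neighbours of POLE3 had a median change of -0.16. POLE, the catalytic subunit, stood at 12.5 and 13.0 FPKM in the controls and 13.6 and 13.6 FPKM in the ETS1 libraries, a change of 0.087 (limma adjusted p = 0.0832). POLE was called higher with voom and with the local chromosomal median removed (changes of 0.095 and 0.11). With the length trend removed POLE was at -0.10 and did not pass. The FPKM ratio of POLE to POLE2 went from 1.12 and 1.23 to 1.87 and 1.99.

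In polymerase delta an accessory subunit rose while another fell. POLD3, an accessory subunit that binds PCNA, rose from 9.47 and 9.35 FPKM to 13.0 and 13.2 FPKM (chromosome 11, 74493851 to 74669117, plus strand), a change of 0.44 ± 0.031 (SE; limma adjusted p = 0.000782). POLD2, the B subunit, fell from 52.1 and 52.5 FPKM to 43.5 and 42.1 FPKM, a change of -0.28 ± 0.029 (SE; limma adjusted p = 0.00170). Their FPKM ratio, POLD3 to POLD2, went from 0.182 and 0.178 to 0.298 and 0.313. POLD1, the catalytic subunit, changed by 0.092 (limma adjusted p = 0.102). It was called higher with quantile normalization and with the chromosome median removed (changes of 0.16 and 0.13). In polymerase alpha-primase, which lays down the primers, PRIM1 changed by -0.14 and passed, while POLA1, POLA2 and PRIM2 changed by 0.043, 0.091 and 0.086 and did not. PRIM1 did not pass in 8 of 17 alternatives, with a change of -0.080 with quantile normalization and -0.065 with the length trend removed, and no test compared it with the other subunits.

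All 6 genes of the clamp and its loader were called, 3 in each direction (3 higher and 1 lower with quantile normalization). RFC3, a small subunit of the loader, had the largest rise of the 57 genes in log2(FPKM + 1), though not in FPKM ratio. It went from 30.0 and 28.0 FPKM to 40.6 and 43.6 FPKM (chromosome 13, 33818049 to 33966558, plus strand). Its change was 0.52 ± 0.051 (SE; limma adjusted p = 0.00149), an FPKM ratio of 1.45. RFC4, another small subunit, went the other way, from 46.7 and 47.0 FPKM to 37.2 and 36.4 FPKM (chromosome 3, 186789880 to 186807058, minus strand), a change of -0.34 ± 0.027 (SE; limma adjusted p = 0.000978). The FPKM ratio of RFC3 to RFC4 was 0.643 and 0.597 in the controls and 1.09 and 1.20 in the ETS1 libraries, so their order was reversed. RFC1, the large subunit, rose by 0.25 and RFC5 rose by 0.11 (not passing in 7 of 17 alternatives), while RFC2 fell by 0.15 (a change of 0.0092 with quantile normalization, and not passing in 4 of 17 alternatives). An exact permutation test of any of these ratios could not go below a two-sided p of 0.333 with 2 libraries against 2.

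PCNA was by far the most abundant replication gene. It stood at 374 and 388 FPKM in the control libraries and 321 and 311 FPKM in the ETS1 libraries, a change of -0.27 ± 0.034 (SE; limma adjusted p = 0.00289). With quantile normalization its change was 0.029 and it was not called. Genes of that level were lower in general: the 939 genes with a mean of at least 50 FPKM had a median change of -0.17, and the 10 replication genes among them -0.23. With quantile normalization these medians were -0.014 and -0.033. In the band from 10 to 50 FPKM the median was -0.037 for 4206 genes and 0.042 for the 40 replication genes in it.

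The 3 subunits of RPA were all called (1 higher and 1 lower with quantile normalization, none higher and 1 lower without ETS1 library 1). RPA2 went from 124 and 126 FPKM to 96.1 and 95.1 FPKM, a change of -0.38 ± 0.026 (SE; limma adjusted p = 0.000727). RPA3 fell from 34.7 and 33.3 FPKM to 31.4 and 30.5 FPKM, a change of -0.13 (limma adjusted p = 0.0266). RPA3 did not pass in 8 of 17 alternatives and was -0.014 with quantile normalization. RPA1, the large subunit that contacts most of the DNA, rose from 30.7 and 29.9 FPKM to 35.6 and 33.5 FPKM, a change of 0.18 (limma adjusted p = 0.0145). RPA1 did not pass in 4 of 17 alternatives, changing by 0.037 with the local chromosomal median removed and by 0.14 without ETS1 library 1 (limma adjusted p = 0.465 and 0.0714). The FPKM ratio of RPA1 to RPA2 went from 0.249 and 0.237 to 0.371 and 0.353.

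The enzymes that join Okazaki fragments, the short pieces of the lagging strand, both rose. FEN1, the nuclease that trims their flaps, stood at 71.3 and 73.1 FPKM in the controls and 85.7 and 81.8 FPKM in the ETS1 libraries, a change of 0.21 ± 0.034 (SE; limma adjusted p = 0.00592). LIG1, the ligase that seals the nicks, went from 20.8 and 21.1 to 23.0 and 23.1 FPKM, a change of 0.13 ± 0.028 (SE; limma adjusted p = 0.0130). FEN1 was recovered at 2483 bases, among the shorter genes, and its neighbours had a median change of -0.056. LIG1 changed by 0.051 and did not pass with the length trend removed, and it did not pass without ETS1 library 1 or without ETS1 library 2 (limma adjusted p = 0.0795 and 0.0862).

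The proteins that travel with the fork also moved in both directions. CLSPN (claspin), the adaptor through which ATR activates CHEK1, had the largest FPKM ratio of the 57 genes, 1.52. It went from 3.92 and 3.91 FPKM to 5.92 and 5.94 FPKM (chromosome 1, 35720218 to 35769967, minus strand), a change of 0.50 ± 0.036 (SE; limma adjusted p = 0.000804), and rested on 855 and 931 reads in the controls. WDHD1, which links the helicase to polymerase alpha, rose from 10.6 and 10.5 FPKM to 11.8 and 12.1 FPKM, a change of 0.16, but by only 0.020 with the local chromosomal median removed, where it did not pass (limma adjusted p = 0.0102 and 0.621). WDHD1 also did not pass without ETS1 library 2 or with the length trend removed (limma adjusted p = 0.0791 and 0.0747).

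TIPIN and TIMELESS form a complex that protects the fork. TIPIN, on chromosome 15, fell from 26.2 and 26.1 FPKM to 21.6 and 21.1 FPKM, a change of -0.28 ± 0.029 (SE; limma adjusted p = 0.00168). Chromosome 15 was low as a whole, with a median change of -0.23 over 344 protein-coding genes, and with that median removed TIPIN changed by -0.048 and did not pass. TIMELESS changed by -0.072 (limma adjusted p = 0.177). With the median of its own chromosome removed TIMELESS was called lower, at -0.15 (limma adjusted p = 0.0286), while with quantile normalization it was at 0.038.

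Nucleotide supply was split by enzyme, with 2 genes higher and 1 lower (3 higher and none lower with quantile normalization, 1 higher and 2 lower with the chromosome median or the local chromosomal median removed). RRM1 and RRM2, the subunits of ribonucleotide reductase, rose together: RRM1 from 43.9 and 43.7 to 48.4 and 48.4 FPKM (change 0.14) and RRM2 from 44.4 and 41.9 to 48.7 and 48.8 FPKM (change 0.17). Their limma adjusted p-values were 0.00753 and 0.0134, and neither passed without ETS1 library 1 or without ETS1 library 2. RRM2 also did not pass with the chromosome median or the local chromosomal median removed (changes of 0.078 and 0.088). TK1, the thymidine kinase of S phase, fell from 80.5 and 81.3 FPKM to 71.2 and 69.2 FPKM, a change of -0.20 ± 0.028 (SE; limma adjusted p = 0.00372), which was -0.062 and did not pass with quantile normalization. TYMS, which makes thymidylate anew, stood at 37.9 and 37.2 FPKM in the controls and 37.8 and 36.9 FPKM in the ETS1 libraries, and the groups overlapped. With those medians removed TYMS was called lower, at -0.15 and -0.17 (limma adjusted p = 0.00980 and 0.00778). With quantile normalization TYMS was called higher, at 0.11 (limma adjusted p = 0.0265), so its call depended on the setting.

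Among the genes that copy chromatin with the DNA, only UHRF1 passed. UHRF1, which brings the methyltransferase DNMT1 to new DNA, stood at 11.8 and 12.0 FPKM in the controls and 13.0 and 14.3 FPKM in the ETS1 libraries, a change of 0.18 ± 0.050 (SE; limma adjusted p = 0.0288). Its ETS1 libraries differed by 8.88%, the widest gap of that group, and it did not pass in 6 of 17 alternatives, among them without control library 1, control library 2 or ETS1 library 2 (limma adjusted p = 0.0783, 0.0631 and 0.117). DNMT1, CHAF1A and CHAF1B changed by 0.040, 0.019 and 0.047 and did not pass, but with quantile normalization all 4 genes were called higher. CHAF1A and CHAF1B are subunits of the CAF-1 histone chaperone.

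**Figure D3:**
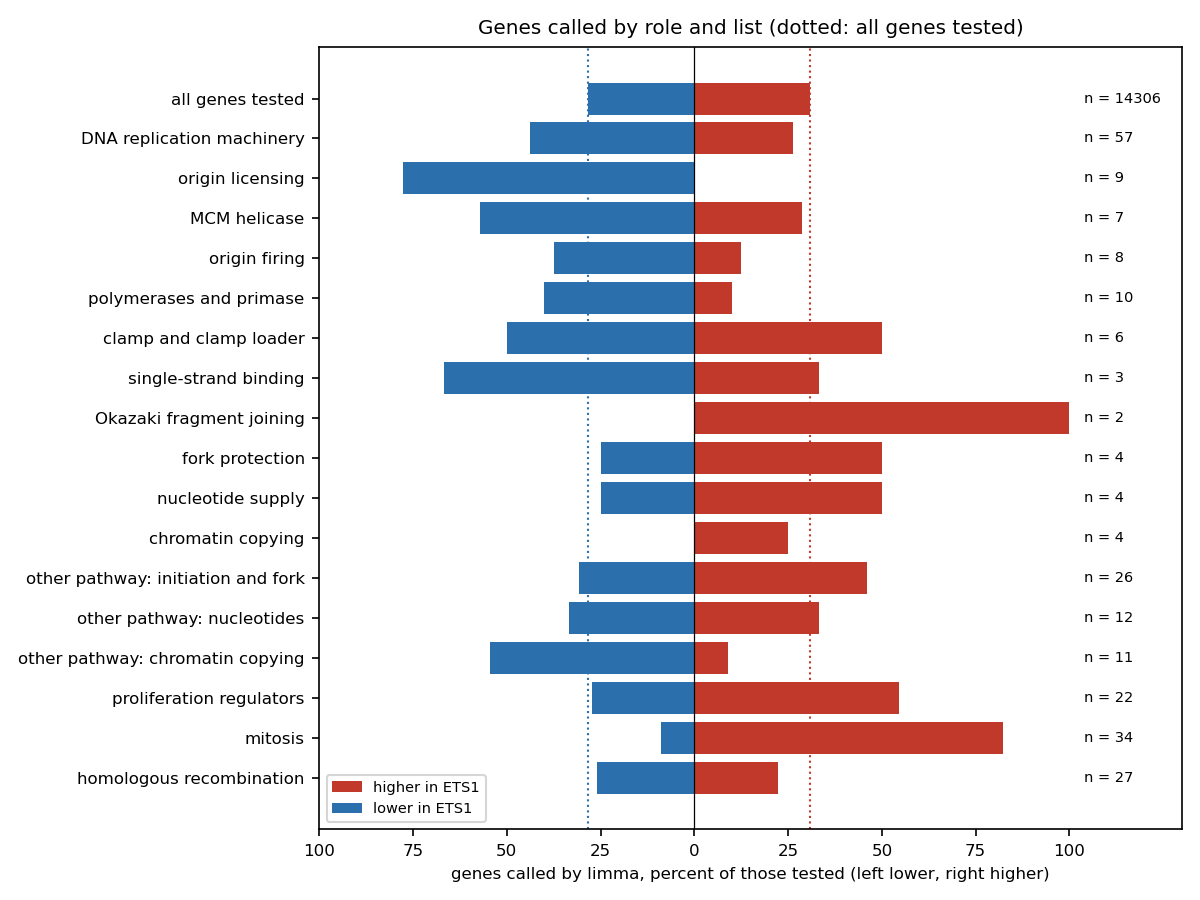
Percent of the genes tested that limma called lower (left, blue) and higher (right, red) in the ETS1 libraries, for all 14306 genes, the 57 replication genes, their 10 roles and 6 lists of other genes; n is the number tested, and dotted lines mark 28.4% lower and 30.7% higher over all genes. Origin licensing has 7 of 9 lower and none higher, whereas the mitosis list has 28 of 34 higher.

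Other genes of the pathway, outside the 57, were also mixed. In a list of 26 tested initiation and fork genes 12 rose and 8 fell (8 and 5 without ETS1 library 1, 7 and 6 with no filter or at a threshold of 0.01). POLE4, a further subunit of polymerase epsilon and partner of POLE3, fell by 0.63, from 21.0 and 21.4 to 13.5 and 13.2 FPKM (limma adjusted p = 0.000482). RNASEH2B, of the enzyme that removes ribonucleotides, fell by 0.56, and CHTF18, of an alternative clamp loader, rose by 0.59. Of the 4 epsilon subunits measured, POLE2, POLE3 and POLE4 therefore fell. The catalytic POLE did not pass in the main test but passed in 2 of 17 alternatives, as higher. In a list of 12 further nucleotide genes 4 rose and 4 fell (2 and 4 without ETS1 library 2, 1 and 6 with the local chromosomal median removed), with falls of IMPDH2, of guanine nucleotide synthesis (-0.75), NME1, a nucleoside diphosphate kinase (-0.98), and DUT, which removes dUTP (-0.63). Of 11 further genes that copy chromatin 6 fell and 1 rose, among them TONSL (-0.40), the histone chaperone NASP (-0.31) and ASF1A (-0.22), but with quantile normalization 3 fell and 2 rose, and without ETS1 library 1 or ETS1 library 2 3 fell and none rose. TONSL and DUT lay among neighbours that were low, with median changes of -0.34 and -0.26. With that local median removed TONSL changed by -0.063 and did not pass, and DUT by -0.38.

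Genes of mitosis, cell cycle control and recombination were read beside them. Of 34 mitosis genes 28 rose and 3 fell, with a median change of 0.33 (0.40 with quantile normalization), and SMC4, of condensin, went from 19.2 and 19.1 to 35.4 and 36.1 FPKM, a change of 0.86 (limma adjusted p = 0.000417). The proliferation marker MKI67 rose by 0.69 and ECT2, of cytokinesis, rose by 0.64. Of 22 proliferation regulators 12 rose and 6 fell. The cyclin CCND1 fell by 0.78, the CDK inhibitor CDKN1B rose by 0.63 and the repressor E2F7 rose by 0.65. The list holds both activators and inhibitors of the cell cycle. Its rises also include FOXM1 (0.46), the cyclins CCNE2 (0.42) and CCNE1 (0.21), and the inhibitor CDKN1A (0.42). The activators of the E2F family, named here after their values were seen, differed in direction: E2F1 fell by 0.29, E2F2 fell by 0.36 and E2F3 rose by 0.22, the last by 0.052 and not passing with the local chromosomal median removed, where CDKN1B rose by 0.37. Of 27 homologous recombination genes 6 rose and 7 fell (11 and 8 with the chromosome median removed). That is 48.1% called, against 59.1% of all tested genes. Whether the replication genes moved because of any of these genes was not tested.

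The direction of change went with gene length. The length behind each FPKM was recovered from the tables, and the median over the 57 genes was 4191 bases. Of the 29 genes up to that length 5 rose and 20 fell (median -0.15), and of the 28 longer ones 10 rose and 5 fell (median 0.082). Across all tested genes the same line gave 20.4% higher and 36.4% lower below it, and 41.9% higher and 19.7% lower above it. Across the 57 genes the change had a Pearson r of 0.42 with log2 length (Spearman rho 0.48), against 0.22 (rho 0.29) across all tested genes. These are descriptions across genes that share 4 libraries. With the trend of all genes on length removed, 6 of the shorter genes were higher and 16 lower, and of the longer 6 were higher and 6 lower. The part of length, as of depth, in these changes was otherwise not tested.

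**Figure D4:**
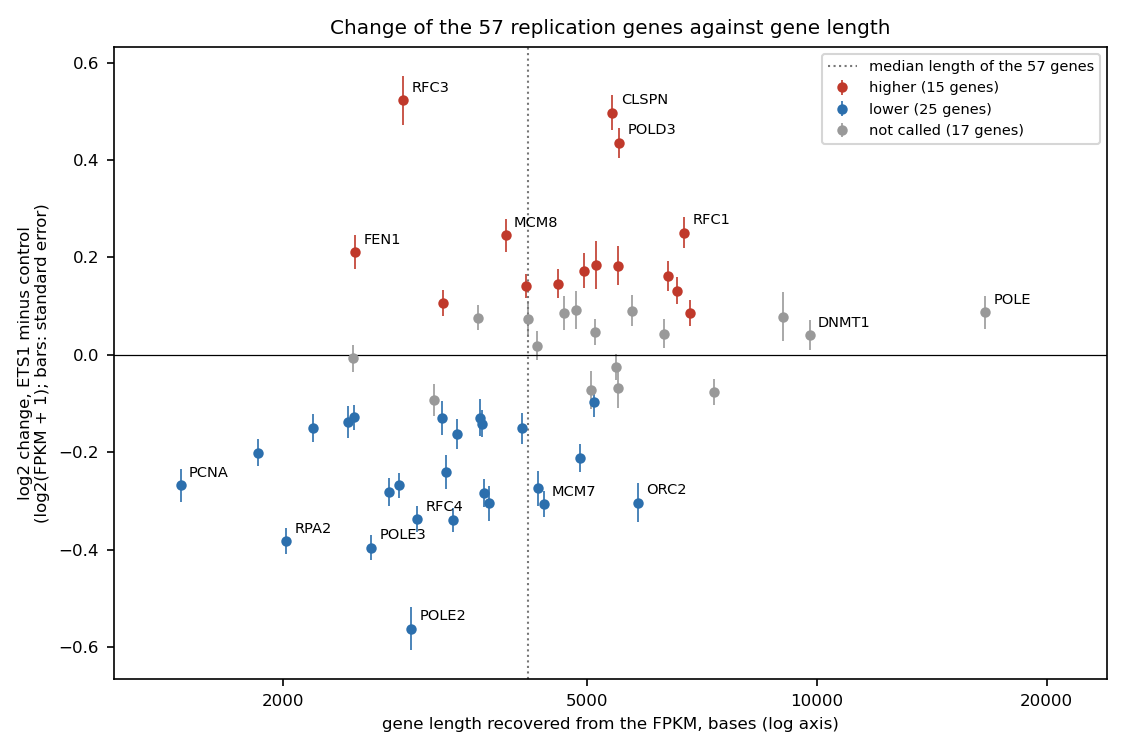
Change of each of the 57 replication genes in log2(FPKM + 1), ETS1 minus control, with its standard error (bars), against the gene length recovered from the FPKM (log axis, bases); red genes were called higher, blue lower and grey not called, and the dotted line is the median length of 4191 bases. Of the 29 genes up to the line 20 were lower, and of the 28 beyond it 5 were lower; RFC3 and FEN1 are short genes that rose.

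Some genes of like length moved apart and others moved alike. Those compared by length here were picked after their values were seen, and the part of length was not tested. RFC3 and RFC4 were recovered at 2872 and 2994 bases and moved by 0.52 and -0.34. POLE2 and RFC3, at 2942 and 2872 bases, gave the largest fall and the largest rise in log2(FPKM + 1). POLD3 and RPA1, at 5508 and 5488 bases, both rose, and GINS4 at 5485 bases did not pass. Of the 40 called genes, 18 kept their direction and their call under every alternative that tested them. They were CDT1, ORC2, ORC5, ORC6, MCM7, CDC45, GINS2, POLD2, POLE2, POLE3, RFC4 and RPA2, all lower, and MCM8, POLD3, RFC1, RFC3, FEN1 and CLSPN, all higher.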

How the data were processed

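RNA from 4 libraries of TE5 cells was analysed, 2 with ETS1 and 2 controls, grouped by title. The deposited FPKM values of 55764 gene names were computed by the authors. Per the submitters' processing notes, the authors used HISAT2, HTSeq, DESeq2 and hg38 (GRCh38), and the annotation, strand setting and versions are not given in the sources used here. The authors' deposited comparison table of 16652 genes gives, per the file headers, a mean normalized count as a signal over the 4 libraries, log2 fold changes with standard errors on the log2 scale, and p-values with adjusted p-values. Raw counts were not used here.

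The main test was limma 3.58.1 in R 4.3.3 on log2(FPKM + 1), for the 14306 genes whose mean FPKM reached 1, with a group term and an intensity trend (2 residual and 2.84 prior degrees of freedom), two-sided, adjusted by Benjamini-Hochberg over all genes tested, at 0.05. A change on this scale understates that of genes with a low FPKM. Reads and gene lengths were recovered from the steps of the FPKM: 99.3% of values came within 0.05 of a whole read among the 2885 genes whose mean normalized count was below 100. Over all genes of the comparison it was 51.9%. Each of the 57 replication genes had a mean count above 100, so their recovered reads are less certain. Positions come from GENCODE 29 on GRCh38, matched by symbol, and may differ from the authors' annotation. The 57 genes, their roles and the other lists were chosen with earlier results of these data known. In each role and list the 3 called genes with the largest absolute change were named in full, and other genes by their change or level. Some genes that this rule picks are not reported here. Same-numbered libraries did not deviate together (correlation -0.0456), so the numbers were not taken as pairs. The limma step was tested on simulated data.

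The alternatives were a pseudocount of 0.1, no filter, a filter at a mean FPKM of 5, quantile normalization, trimmed-mean scaling, a replicate block, no intensity trend, voom on the recovered reads, removal of the chromosome median or of the length trend, a threshold of 0.01, the authors' deposited values and leaving out each library. Removal of the local chromosomal median (up to 25 protein-coding neighbours on each side) was chosen after seeing the data.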

Additional observations from a re-analysis of the deposited data

How the results depend on the processing

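With 2 libraries a group, changes of about 0.1 in log2(FPKM + 1) lay near the threshold, and counts of genes moved with the setting. The genes called over the whole table numbered 8451, and 5562 of 8215 with a mean FPKM of at least 5 and 5386 at a threshold of 0.01; leaving out each library gave 5704 to 7669. Replication genes called higher numbered 15, and 7 at a threshold of 0.01, and 7 to 13 without each library, the lowest counts being 8 and 7 without ETS1 library 1 and ETS1 library 2. Genes called lower numbered 25, and 14 with quantile normalization, and 17 to 22 without each library. The median change of -0.068 was -0.086 with trimmed-mean scaling, 0.027 with quantile normalization, -0.057 with the local chromosomal median removed, -0.095 in the authors' deposited table and -0.063 to -0.033 without each library. With the replicate number as a block (replicate block) 13 genes were higher and 22 lower, and 7283 genes were called in all, and ORC3, GINS3, PRIM1, MCM4 and RFC5 lost their calls (limma adjusted p = 0.0604, 0.106, 0.0527, 0.0956 and 0.0616). The cause of these shifts was not tested.

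Of the 40 called genes 22 lost the threshold and 4 turned direction at least once, and 13 of the 17 others passed at least once. With quantile normalization GMNN was at 0.0071, PCNA at 0.029, RFC2 at 0.0092, MCM10 at 0.027, TIMELESS at 0.038 and TYMS at 0.11. With the length trend removed MCM4 was at -0.00075, ORC4 at -0.044, POLA1 at -0.032, POLE at -0.10, TYMS at 0.064 and DNMT1 at -0.091. With the chromosome median removed ORC4 was at -0.016, GINS4 at 0.082, POLA1 at -0.054 and CHAF1B at -0.040. With the local chromosomal median removed ORC4 was at -0.047, CDC7 at -0.11, GINS4 at 0.14, POLA1 at -0.040, PRIM2 at -0.046 and CHAF1B at -0.039. CHAF1A was at -0.0027 with trimmed-mean scaling and -0.0046 in the authors' deposited table. Without each library TYMS ran from -0.023 to 0.0083 and CHAF1A from -0.0022 to 0.040. CLSPN, ORC4 and GINS4 were not tested at a mean FPKM of at least 5.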

Other observations

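The replication genes were spread over 22 chromosomes, and on some of them most calls ran 1 way. All 4 on chromosome 16 (ORC6, CDT1, GINS2 and GINS3) were called lower, where the 502 protein-coding genes of that chromosome had a median change of -0.011. On chromosome 7, 5 of 6 were lower (ORC5, MCM7, POLD2, RFC2 and RPA3) and DBF4 was higher, with a chromosome median of -0.0056 over 500 genes. On chromosome 11, 3 of 4 were higher (POLD3, FEN1 and RRM1) and none lower, with a median of 0.043 over 603 genes. These chromosomes were picked after the values were seen. The largest chromosome median was that of the mitochondrial chromosome M, 0.94 over 13 protein-coding genes, and none of the 57 genes lies on it. The part of that shift in the FPKM of other genes was not tested. Across the 57 genes the change had a Pearson r of 0.15 with the median change of the neighbouring genes, against 0.29 across all tested genes.

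The change also went with level. Across the 57 genes it had a Pearson r of -0.35 with log2 mean FPKM (Spearman rho -0.35), against -0.16 (rho -0.18) across all 14306 tested genes. CCNB2 (-0.44), AURKB (-0.16) and BUB1B (-0.15) were the 3 mitosis genes that fell. CCNB2 and BUB1B lie on chromosome 15, whose median change was -0.23, and with the local chromosomal median removed CCNB2 was at -0.22 and BUB1B at 0.17.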
